A study of Arabidopsis thaliana with 6 samples.

Results

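The cysteine-rich receptor-like kinases (CRKs) of Arabidopsis thaliana form a large family of plasma membrane receptors, and 5 probe sets of this family are described here. They are 254266_at for CRK5 (AT4G23130), 254265_s_at for CRK6 (AT4G23140), 254271_at for CRK7 (AT4G23150), 254255_at for CRK14 (AT4G23220) and 254252_at for CRK23 (AT4G23310), out of 22746 probe sets on the array. They were selected by probe set identifier, chosen by their signal in the comparison of the genotypes, so that difference is given as a description and was not tested. The assignment of these probe sets to the 5 genes came with the selection, since 0 of the 5 are listed in the probe annotation used here. All 5 loci are present in the RefSeq gene table. The suffix of the CRK6 probe set marks probes shared by several transcripts, so its signal may include a related gene.

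Transcript levels had been measured on 6 Affymetrix ATH1 arrays, 3 of wild-type Col-0 plants and 3 of sni1 plants in the Col-0 background. The sni1 mutation is labelled as induced by radiation and placed in At4g18460, the gene next to SNI1, and wild type carried no labelled change. All plants had 3 days of cold at 4 °C as seeds, grew in soil at 22 °C and were sampled whole at growth stage 3.90, which is the only statement of age. Whether the samples came from separate plants or sowings is not given in the labels, and the errors and p-values therefore reflect the spread among arrays, which may be technical. Means are given ± SD over the 3 arrays of a genotype (n = 3), and log2 differences ± SE.

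A CRK consists of an extracellular part with repeated cysteine-containing domains (DUF26), a single membrane span and an intracellular serine/threonine kinase. Many CRK transcripts are known to accumulate after pathogen attack, salicylic acid or reactive oxygen treatment. SNI1 is known to hold systemic acquired resistance in check, a defence state in which salicylic acid is a signal. RefSeq named 42 genes as cysteine-rich receptor-like kinases, and 37 of them were on chromosome 4. In gene order the stretch from CRK5 to CRK24 held 23 loci, of which 20 were CRK genes. CRK5, CRK6 and CRK7 were direct neighbours at its start, CRK14 followed after 8 further loci and CRK23 after another 9. The other 15 CRK genes of this run had no named probe set and were not analysed here.

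Signals are MAS5 intensities on a linear scale, already scaled to a common trimmed mean. Differences between genotypes are sni1 minus wild type of log2(signal + 2.89), where the added constant is the 10th percentile of all values, which makes differences of low signals too small. A mean signal under 24.5 over all arrays excluded a probe set from the tests, which kept 13648 probe sets and 4 of the 5 members. CRK23, with a mean of 15.2, lay under this value. Because a member could pass this filter through sni1 alone, the number passing is no evidence of a difference.

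CRK6 and CRK7, adjacent genes whose loss in Arabidopsis is known to raise sensitivity to extracellular reactive oxygen species, had the widest gaps between the genotypes on this scale. The CRK6 signal was 66.9, 119.8 and 53.0 in wild-type replicates 1, 2 and 3, and 966.6, 797.6 and 569.6 in sni1 replicates 1, 2 and 3. Every sni1 array was above every wild-type array, and the lowest sni1 value was 4.75 times the highest wild-type value. The CRK6 mean was 79.9 ± 35.3 in wild type against 777.9 ± 199.2 for sni1, which gave a log2 difference of 3.29 ± 0.32 (SE).

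The CRK7 signal was 9.22, 11.1 and 5.00 in wild type against 125.7, 150.5 and 70.0 in sni1, in the same order of replicates. Wild-type CRK7 was low, under the 25th percentile of its array in all 3 cases (9.38 to 14.1), whereas all sni1 values were well over it. The CRK7 mean was 8.43 ± 3.11 in wild type against 115.4 ± 41.2 for sni1, which gave a log2 difference of 3.36 ± 0.34 (SE). In plants sampled whole, a higher level per cell and a larger number of expressing cells cannot be told apart, which holds for every member.

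CRK14, for which no role is given here, had the smallest spread among arrays. Its signal was 52.7, 54.2 and 44.6 in wild type against 159.5, 194.3 and 173.0 in sni1. The groups were separated by a factor of 2.94 between the lowest sni1 and the highest wild-type array. The CRK14 mean was 50.5 ± 5.15 in wild type against 175.6 ± 17.6 for sni1, which gave a log2 difference of 1.74 ± 0.16 (SE). The SD was 10.2% of the mean in wild type and 9.996% in sni1 for CRK14, against 19.1% to 54.9% for the other members.

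CRK5, whose overexpression in Arabidopsis is known to cause cell death and raise resistance to bacterial infection, had the smallest difference. Its signal was 57.6, 53.9 and 28.8 in wild type against 89.5, 87.7 and 62.2 in sni1. The groups did not overlap, but sni1 replicate 3 was only 1.08 times the highest wild-type array. The CRK5 mean was 46.8 ± 15.7 in wild type against 79.8 ± 15.3 for sni1, which gave a log2 difference of 0.77 ± 0.28 (SE). Without wild-type replicate 3, its lowest array, the CRK5 difference was 0.48, more than 1.5 times smaller.

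CRK23 had the lowest signal, 3.32, 5.05 and 1.46 in wild type against 28.6, 38.0 and 14.7 in sni1. In wild-type replicates 1 and 3 it was under the 10th percentile of the array (3.77 and 1.82), and in sni1 it was over the 25th percentile of each array (9.92 to 13.2). The CRK23 mean was 3.28 ± 1.80 in wild type against 27.1 ± 11.7 for sni1, which gave a log2 difference of 2.24 ± 0.41 (SE, from a fit without the filter). The size of this difference depended on the added constant, with 1.31 after the 25th percentile (12.2) was added and 3.12 with no constant. For CRK7, the other member with low wild-type signal, these values were 2.58 and 3.78, while CRK6 (3.13 and 3.34), CRK14 (1.58 and 1.80) and CRK5 (0.67 and 0.82) moved less. CRK7 was over CRK6 with no constant and under it with the larger constant, and it was also under CRK6 without wild-type replicate 2 (3.55 against 3.61) and without sni1 replicate 2 (3.15 against 3.25), so the order of CRK6 and CRK7 was not settled.

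**Figure D1:**
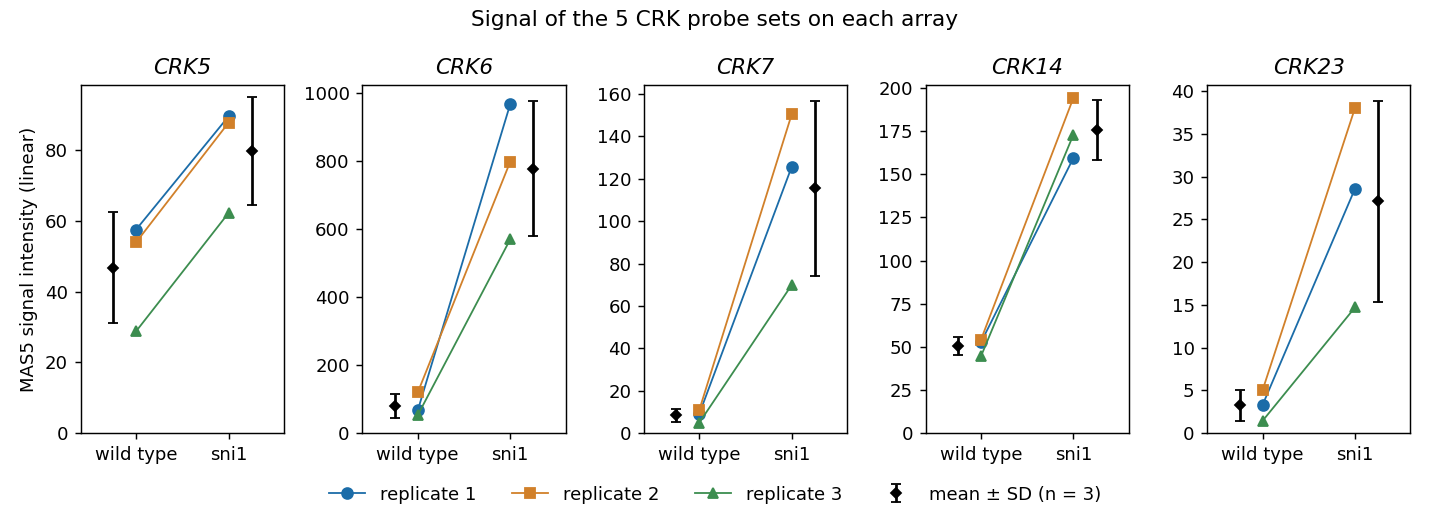
Linear MAS5 signal of each CRK probe set in wild type and sni1, with a marker and line for each replicate number and black diamonds for the mean ± SD (n = 3). All sni1 arrays lie above all wild-type arrays for each gene, by 1.08 times at the closest for CRK5 and 4.75 times for CRK6, and each panel has its own scale starting at 0.

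For all 5 members the sni1 arrays lay above the wild-type arrays, as they did for 7.73% of all tested probe sets. The members were chosen on this contrast, so the count carries no further information. The median log2 difference of the 5 was 2.24, against -0.0051 over all tested probe sets. This median is the value of CRK23, which was itself not among the tested probe sets. Its size ran from 1.31 to 3.12 with the added constant.

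Wild-type and sni1 arrays share replicate numbers, and same-numbered arrays deviated together, which allows the difference to be read within each number. For CRK14 the sni1 signal was 3.03, 3.58 and 3.88 times that of wild type in replicates 1, 2 and 3, and for CRK5 it was 1.56, 1.63 and 2.16 times. CRK6 was less even, with ratios of 14.4, 6.66 and 10.8. For CRK7 and CRK23 no ratio is given, because their wild-type signals were too low to serve as a base. Their log2 differences with the added constant were 3.41, 3.46 and 3.21 for CRK7 and 2.34, 2.37 and 2.02 for CRK23, and the size of these depends on that constant.

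The smallest CRK6 ratio was that of replicate 2, in which wild type had its highest CRK6 value (119.8). On the log2 scale the SD of the 3 within-number differences was 0.55 for CRK6, 0.23 for CRK5 and 0.17 for CRK14. The difference was above 0 in every replicate number for each of the 5 members, as it was for 23.2% of all tested probe sets.

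**Figure D2:**
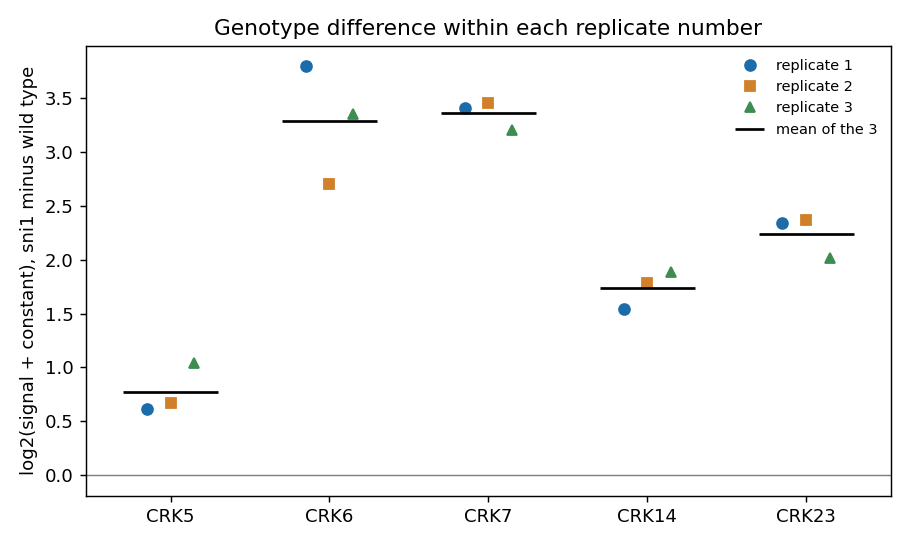
Log2 difference between sni1 and wild type within each replicate number for the 5 CRK probe sets, with a black line at the mean of the 3. The points of CRK6 spread from 2.71 to 3.80 and those of CRK14 from 1.55 to 1.89, and the height of CRK7 and CRK23 depends on the added constant.

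Differences between replicate numbers, averaged over both genotypes, took no part in the choice of the members and were tested. Replicate 3 had the lowest signal of all 5 members in wild type and of 4 of them in sni1. Averaged over genotypes, CRK5 stood at 73.5, 70.8 and 45.5 in replicates 1, 2 and 3, CRK6 at 516.8, 458.7 and 311.3, and CRK7 at 67.5, 80.8 and 37.5. The log2 difference of replicate 3 from the mean of the others was -0.69 for CRK5, -0.68 for CRK6 and -0.83 for CRK7. CRK5 and CRK6 varied with replicate number (limma F test, adjusted p = 0.0213 and 0.0320). CRK7 entered the test only through its sni1 signal, its wild-type mean of 8.43 being under the filter. Its adjusted p in the limma F test was 0.0250, and this and the later p-values of CRK7 are given only as a description. CRK14 stood at 106.1, 124.3 and 108.8, a difference of -0.14, and did not pass (adjusted p = 0.507). CRK23, at 16.0, 21.5 and 8.09, had a difference of -0.86 and was not among the tested probe sets.

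Replicate number was a common source of variation in these arrays. By the same test 31.2% of all tested probe sets passed, and replicate 3 was lowest in both genotypes in 28.8%, against 4 of the 5 members. These 4 include CRK23, which was not among the tested probe sets, and CRK7, which was tested only through its sni1 signal. Over all tested probe sets the 25th and 75th percentiles of the replicate 3 difference were -0.33 and 0.23. The 5th percentile was -0.82, and CRK5 and CRK6 lay between it and the 25th percentile. CRK7 was tested only through its sni1 signal and CRK23 (-0.86) was under the filter. Neither can therefore be placed among these percentiles. The array medians were also lowest in replicate 3, at 34.6 and 36.7 against 39.2 to 40.8 in the other 4 arrays, and the 10th percentiles were 1.82 and 1.90 against 3.37 to 4.35. After quantile normalization, which gives all arrays the same distribution, the replicate 3 difference was -0.56 for CRK5, -0.66 for CRK6 and -0.52 for CRK7 (limma F test, adjusted p = 0.0378, 0.0239 and 0.198). After median centring it was -0.53, -0.52 and -0.68 (0.0488, 0.0707 and 0.0578), and after cyclic loess -0.60, -0.69 and -0.65 (0.0297, 0.0239 and 0.0712). Of the settings that left the differences themselves in place, the fit without the filter called none of the 3 genes (0.0563, 0.0772 and 0.0682) and the fit without the variance trend did not call CRK6 (0.116). With replicate 2 left out, CRK7 stood at -0.73 and did not pass (0.0920). The difference thus stayed negative for these 3 genes in each setting named here, while the calls did not all hold.

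**Figure D3:**
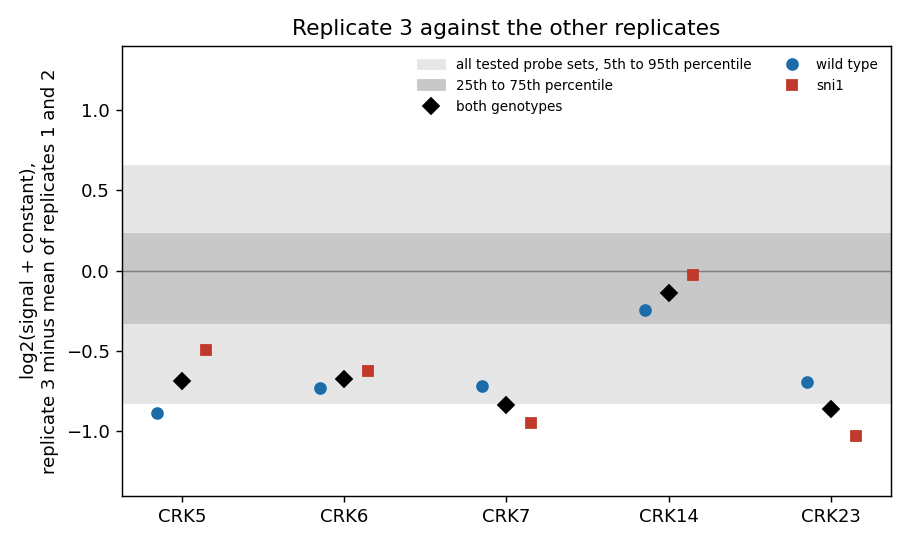
Log2 difference of replicate 3 from the mean of replicates 1 and 2 for the 5 CRK probe sets, in wild type (blue), in sni1 (red) and over both genotypes (black). Grey bands give the 5th to 95th and 25th to 75th percentiles of all tested probe sets, and CRK14 at -0.14 is the only member inside the inner band. CRK23 was not among the tested probe sets, and CRK7 was among them only through its sni1 signal. The bands are therefore no like background for either.

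Whether the higher CRK signal extended to neighbouring genes was read from the 20 nearest named genes on each side of the run, of which 23 of 40 were tested. None passed in the comparison of genotypes without the replicate number as a block (limma, 0.520% of all tested probe sets higher and 0.0293% lower). Of the 23, 4 had an unadjusted limma p under 0.05, against 1159 of all 13648 tested probe sets. Their median log2 difference was 0.08, and 19 of the 23 lay within 0.5 of 0, a range for which no share over all probe sets was counted. In 5 of the 23 every sni1 array was above every wild-type array, against 7.73% of all tested probe sets. AT4G23330, the locus directly after CRK24, averaged 29.3 ± 1.58 against 28.0 ± 2.60 for sni1 (-0.06 ± 0.20, limma adjusted p = 0.975). IQD22, the nearest tested gene before CRK5 at 7 loci, differed by less than its spread, at 62.8 ± 16.8 and 61.2 ± 7.41 (-0.01 ± 0.21, limma adjusted p = 0.992).

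When replicate number entered the fit as a block, 4 of the 23 neighbours rose and 0 fell, against 6.15% of all tested probe sets higher and 3.91% lower (10.1% in either direction). These were SGT1A, a co-chaperone of plant immune receptors (log2 difference 0.72, limma adjusted p = 0.00189 with the block and 0.495 without), AT4G23610 (1.04, 0.0184 and 0.426), AT4G22960 (0.88, 0.0227 and 0.380) and AT4G23470 (0.39, 0.0255 and 0.556). With the block and both arrays of a number left out, the call was lost for AT4G23470 in each case (limma adjusted p from 0.0751 to 0.0894), for AT4G23610 without replicate 1 or 2 (0.151 and 0.0748) and for AT4G22960 without replicate 2 or 3 (0.0703 and 0.0761). The 4 genes lay 19 loci before CRK5 or at least 23 loci after CRK24. A neighbour under the filter, AT4G23030, 11 loci before CRK5, was singled out after its values were seen. Its signal was 2.49, 2.30 and 1.46 in wild type against 13.0, 18.7 and 19.8 in sni1, without overlap, and it was not tested.

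AT4G18460, in which the labels place the mutation, is on the same chromosome, with 630 loci between it and CRK5. It averaged 39.4 ± 2.01 against 35.0 ± 8.35 for sni1 (-0.18 ± 0.21, limma adjusted p = 0.906). Values of SNI1 itself were not analysed here.

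**Figure D4:**
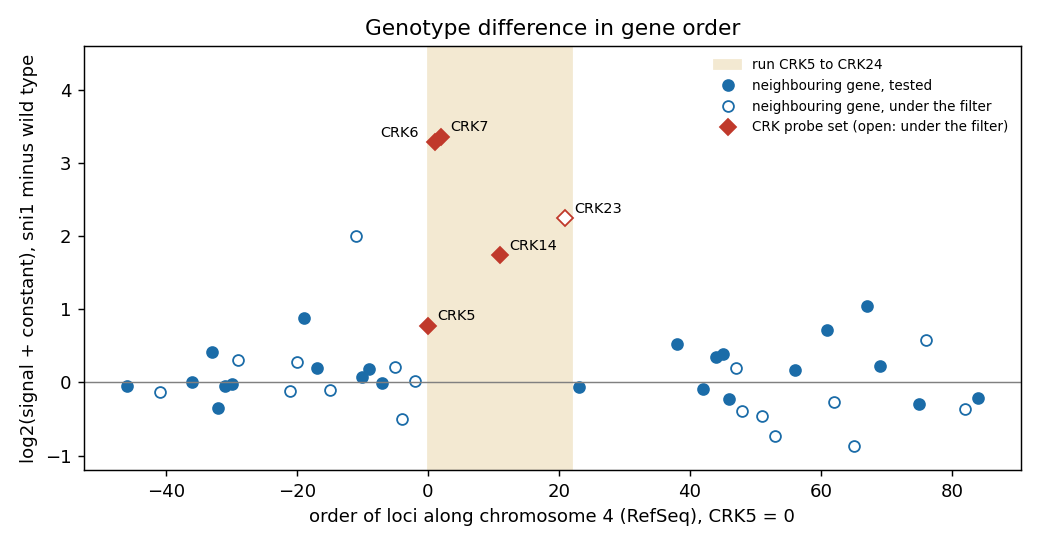
Log2 difference between sni1 and wild type for the 5 CRK probe sets (red diamonds) and their 40 nearest named neighbours (circles) in the order of loci on chromosome 4, counted from CRK5. Open symbols lie under the filter and the shaded run spans CRK5 to CRK24. The members stand between 0.77 and 3.36, and 19 of 23 tested neighbours lie within 0.5 of 0. The members were chosen on this contrast, so their height above the neighbours carries no information. No share within 0.5 of 0 was counted over all probe sets.

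Of 41 further CRK loci on the list, 3 had a named probe set and 1 was tested. AT1G70740 averaged 60.1 ± 12.0 against 53.9 ± 19.4 for sni1 (-0.20 ± 0.29) and passed in neither fit (limma adjusted p = 0.491 with the block and 0.931 without). It stood at 0.11 without sni1 replicate 3. AT4G00960 and AT4G28670 lay under the filter, with wild-type means of 3.80 and 1.38 and sni1 means of 5.03 and 3.96. The single tested gene of 9 on the list of DUF26 proteins without a kinase, AT3G22060, averaged 48.6 ± 14.9 against 97.8 ± 22.8 for sni1 (0.99 ± 0.25), and passed as higher with the block (limma adjusted p = 0.00150 with it and 0.248 without).

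Among pattern recognition receptors and their partners, which perceive microbial molecules at the cell surface, 4 of 20 genes were tested. None passed without the replicate block, and 2 had an unadjusted limma p under 0.05, against 1159 of all 13648 tested probe sets. With the block 3 rose, against 6.15% of all tested probe sets called higher. The list was chosen with earlier results of these data known, so these counts are no independent evidence. BIK1, a cytoplasmic kinase that relays signals of these receptors, had a log2 difference of 0.78 ± 0.20 (SE; limma adjusted p = 0.00568 with the block and 0.260 without). AT4G08850 stood at 1.101 ± 0.30 (0.00191 and 0.270) and SD1-29, the receptor for bacterial medium-chain fatty acid metabolites, at 0.50 ± 0.26 (0.0440 and 0.700). The SD1-29 call was lost when quantile normalization was added to the block (0.0570) and without replicate 1, 2 or 3 (0.168, 0.176 and 0.0574), and its difference was 0.32 without wild-type replicate 3. FER, a receptor kinase of growth and cell wall sensing, did not pass in either fit (0.15 ± 0.17, limma adjusted p = 0.403 with the block and 0.906 without). EFR, the receptor for bacterial elongation factor Tu, lay under the filter. The median of the 4 was 0.64.

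On the salicylic acid response list, 4 of 14 genes entered the test. Their median log2 difference was 0.98, and 0 passed without and 3 with the block, against 0.520% and 6.15% of all tested probe sets called higher. This list was also chosen with earlier results of these data known, so the counts are no independent evidence of a salicylic acid response. WRKY53, a transcription factor of defence and senescence, had a log2 difference of 1.49 (limma adjusted p = 0.000110 with the block and 0.226 without), and SAG101, a lipase-like defence protein, had 1.096 (0.00495 and 0.211). GRX480, a glutaredoxin, had 0.87 (0.0143 and 0.665), and 0.49 without wild-type replicate 3 or 0.55 without sni1 replicate 1. AT5G03350 did not pass (0.34, limma adjusted p = 0.380 with the block and 0.967 without). Lists of wall-associated kinases and of the oxidative burst had 0 members with a named probe set. Of the tissue markers, the leaf genes LHCB4.2 and RCA had means of 3156 to 4995 over both genotypes, the root hair gene EXPA7 lay under the filter (15.2 and 8.91) and flower markers were not analysed here. LHCB4.2, a light-harvesting protein, had a log2 difference of -0.47, which passed only with the block (limma adjusted p = 0.0125, and 0.549 without it). It stood at -0.26 after quantile normalization and -0.28 after cyclic loess. RCA, which activates the carbon-fixing enzyme Rubisco, stood at -0.11 and did not pass (0.954 without and 0.466 with the block), and turned to 0.06 after quantile normalization and 0.10 after cyclic loess. The part of leaf content in the members' values was not tested.

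The profiles of the members over the 6 arrays were compared as deviations from each gene's own mean log2 value. The measure of likeness was the root-mean-square difference between 2 profiles in log2 units, where 0 means identical profiles. CRK6 and CRK7 were the closest pair of members, at 0.26, followed by CRK14 and CRK23 at 0.45. CRK5 was farthest from the others, at 1.31 from CRK7 and 1.29 from CRK6, and nearest to CRK14 at 0.56. Since the genotype difference fills most of these profiles, this order follows the sizes given for the members above.

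Of 7278 named genes outside the family, the nearest to the mean profile of the 5 members was AT5G52390, at 0.15, against a median of 1.21 for all 7278. Its signal was 8.74, 14.3 and 5.51 in wild type against 52.1, 70.9 and 33.6 in sni1, so that it had the lowest signal in replicate 3 of both genotypes, as CRK5, CRK6, CRK7 and CRK23 did. The next were AT3G49340 (0.20), AT5G18470 (0.25), AT3G13950 (0.27), AT1G10340 (0.27), AT4G00700 (0.27), AT5G39670 (0.27) and AT5G52760 (0.27). All 8 had a log2 genotype difference between 1.88 and 2.79 and a negative replicate 3 difference, from -0.96 to -0.34. Both traits follow from the choice by likeness to the members' profile and carry no further information. AT5G52390, AT3G49340, AT3G13950, AT1G10340 and AT4G00700 had wild-type means under the filter (4.86 to 23.6), so they were compared only through their sni1 signal. The members themselves stood between 0.16 (CRK23) and 0.77 (CRK5) from their mean profile.

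The nearest genes to each member were added after seeing the data and differed with the size of its difference. CRK14 was nearest to RING1, an E3 ubiquitin ligase, at 0.086, with a RING1 mean of 249.7 in wild type and 851.4 in sni1 (log2 difference 1.76). CRK5 was nearest to AT4G34150 at 0.089, whose mean was 360.2 and 548.3 (0.64). CRK23 was nearest to AT5G52390 at 0.11, a gene with means of 9.50 and 52.2. CRK6 and CRK7 were both nearest to AT3G13950, at 0.31 and 0.33, with means of 4.86 and 49.5. The chitinase gene CHI followed for CRK7 at 0.35. No named gene came closer to CRK6 or CRK7 than they were to each other.

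Over 20 alternative settings the difference between genotypes stayed above 0 in all 100 values of the 5 members. The members were chosen on this contrast and their groups do not overlap, so leaving out arrays could not change the sign. Changing only the filter, the variance trend or the block left each estimate as it was. The count is therefore no evidence of a difference, and only the sizes are read here. CRK14 ran from 1.58 to 1.85, CRK6 from 3.04 to 3.61, CRK5 from 0.48 to 0.95, CRK7 from 2.58 to 3.78 and CRK23 from 1.31 to 3.12. For CRK7 and CRK23 both ends were set by the added constant, and for CRK5 and CRK6 by leaving out arrays.

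**Figure D5:**
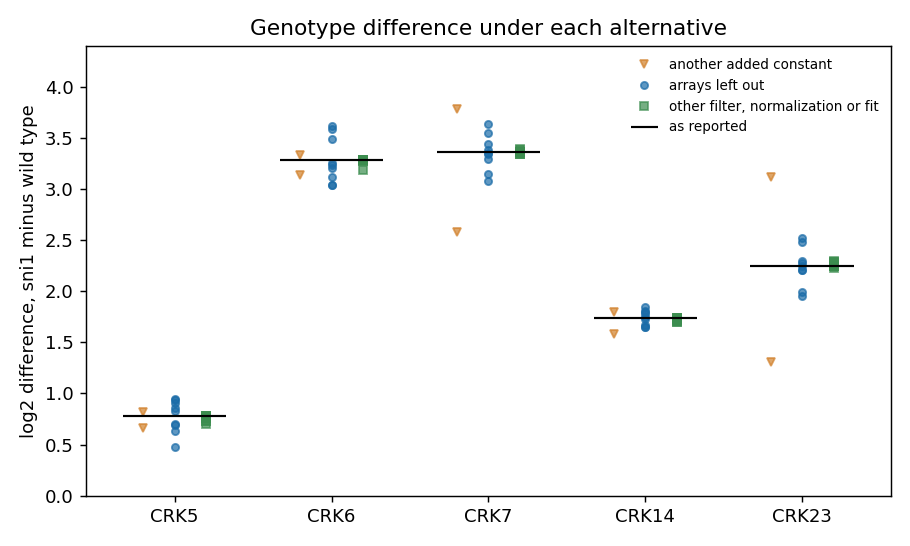
Log2 difference between sni1 and wild type of each CRK probe set as reported (black line), with another added constant (orange), with arrays left out (blue) and with another filter, normalization or fit (green). The values with another constant spread most for CRK23, from 1.31 to 3.12, and least for CRK5, from 0.67 to 0.82.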

How the data were processed

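The deposited values are signal intensities per probe set and array on a linear scale. The submitters' processing notes name MAS5, without a version, which is not given here. The mean without the lowest and highest 2% was 100.01 on every array. Precision is limited by how few arrays there are.

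The 64 control probe sets were left out. Names came from the platform annotation (14016 probe sets listed, 503 of them with several genes, 13436 with 1 gene and a locus), updated through the TAIR10.1 gene table, and for a locus with several the probe set of highest mean was used. Members were taken by identifier. The members and gene lists were chosen with earlier results of these data known.

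Genotypes were compared with limma 3.58.1 (lmFit, eBayes with trend) in R 4.3.3 on log2(value + 2.89) for the 13648 probe sets at or above the 40th percentile of mean signal, two-sided, with Benjamini-Hochberg adjustment over all of them and a threshold of 0.05. Replicate numbers were compared by the F test of a fit with genotype and number. No sequences were used. Python 3.11.15 with matplotlib 3.10.9 was used for the figures.

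Named genes were the members, further CRK genes, up to 4 genes per list with the smallest p, the 8 genes nearest in profile and AT4G18460. Outside this rule, AT4G23330 and IQD22 were named as the nearest tested neighbours on each side of the run. EFR and the tissue markers were named as well. AT4G23030 and the genes nearest to each member were named after the data were seen. Same-numbered arrays deviated together from their genotype means (correlations across probe sets of 0.664, 0.581 and 0.713), so the numbers were taken as pairs, on the evidence of the data alone. Blocked values are given where they change a call.

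On data simulated for the unblocked genotype comparison over 13648 probe sets, 7% of changes of 1 and 68% of changes of 2 on the log2 scale were recovered, with 0 false calls. With the block these shares were 40% and 87%, with 4 false calls. The simulated replicate differences were the same in both genotypes, with independent noise added, which is the model of the blocked fit. The gain with the block follows from that setting and is no evidence for the blocked calls in the real arrays. The F test of replicate number recovered 11% and 60%, with 1 false call.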

Additional observations from a re-analysis of the deposited data

How the results depend on the processing

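The median log2 difference of the 5 CRK probe sets was 2.24, and 1.58 with the larger constant (12.2), 3.12 with none and 1.96 to 2.52 with arrays left out. The value of 2.24 is that of CRK23, which lay under the filter. Calls over all probe sets were 71 higher and 4 lower in sni1. They became 43 higher with the filter at the 60th percentile, 124 higher and 13 lower with array weights, and 840 and 533 with the replicate block. The block with quantile normalization, added after seeing the data, gave 836 and 606. Without the filter 1 was lower. With arrays left out, higher calls ran from 5 (without sni1 replicate 1 or sni1 replicate 2; 36 and 40 without wild-type replicate 1 or 2) to 723 and lower calls from 0 to 398, the upper ends coming from fits that leave out both arrays of a number and keep the block. Of 32 tested genes in the related lists and among the neighbours, 0 passed in the fit without the block (limma). Of the 32, 9 had an unadjusted limma p under 0.05, against 1159 of all 13648 tested probe sets. With the replicate block 11 of the 32 passed, against 10.1% of all tested probe sets, and 10 with the block and quantile normalization. The gene lists were chosen with earlier results of these data known, so these counts are no independent evidence. With arrays left out 0 to 11 passed (7 with the block and without both arrays of replicate 2). Of the other CRK loci, AT1G70740 had no call in the 19 alternatives in which it was tested (limma, 0 at an unadjusted p under 0.05 as reported) and was not tested with the filter at the 60th percentile. AT4G00960 and AT4G28670 had no call without the filter. Replicate number calls were 4252, and 1460 to 3477 without the arrays of a number. The log2 replicate 3 difference of CRK14 was -0.14 and turned to 0.019 after median centring. RCA turned from -0.11 to 0.059 after quantile normalization, without or with the replicate block, to 0.095 after cyclic loess, and ran from -0.25 to 0.041 with arrays left out. AT1G70740 ran from -0.42 to 0.11 and AT5G03350 from -0.65 to 1.16 with arrays left out. The causes were not tested. Low wild-type signal limits the size of the CRK7 and CRK23 differences.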
